A study of Mus musculus with 24 samples.

Results

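The response to a low protein diet that wild type and FGF21 knockout kidneys had in common was examined by setting 12 libraries from mice on low protein (LP) against 12 from mice on normal protein (NP), with genotype as a covariate. All 24 libraries of the series entered, 12 of them wild type (WT) and 12 knockout (KO). Tissue was kidney cortex from male C57BL6/J mice, either WT or lacking Fgf21 (KO), aged 22 months, which had eaten 1 of the diets since 3 months of age. The labels name the knockout without its allele. Casein supplied 20% (NP) or 5% (LP) of the diet, and food was freely available in every group. The groups WT_NP, WT_LP, KO_NP and KO_LP held 6 libraries each, 1 library per mouse, and were counted from QuantSeq reads of the 3' end of transcripts, 50 bases long. A replicate number is a name and pairs no mice.

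FGF21 is a hormone that the liver releases when dietary protein is scarce. It acts through FGF receptors with the co-receptor beta-Klotho, and much of the metabolic response of mice to protein restriction depends on it. The kidney cortex, mostly proximal tubule, breaks down and reabsorbs amino acids, conjugates foreign and oxidised compounds with glutathione, and makes methyl donors from glycine and serine. The comparison asks which kidney genes change with dietary protein when both genotypes are counted. Its coefficient is the diet effect averaged over both genotypes, so a call does not by itself show that the effect was equal in them. The difference between genotypes, KO minus WT, is therefore given with its 95% interval beside the genes described in full, and for each called gene whose interval leaves out 0. Fgf21 and Klb were not analysed here, so the labels of genotype could not be checked with the deleted gene.

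Library totals ran from 8469102 to 21063652 counts. Levels are given as CPM, counts scaled by library size and its TMM factor. Markers of the proximal tubule were all measured (15 of 15 for its first segments, 12 of 12 for its last). So were 15 of 15 podocyte markers, whose mean per library ran from 4.31 to 5.21 log2 CPM. Of 9 inner medulla markers 6 passed the filter, with a mean per library of 3.69 to 5.01 log2 CPM. In LP minus NP the inner medulla mean differed by -0.36 log2 CPM in WT and 0.52 in KO. Its KO values ran from 3.73 to 4.19 on NP and from 4.19 to 4.96 on LP. The part of this difference in the results below was not tested. The library WT_NP 1 stood apart from the other 5 of its group: its mean level of macrophage and dendritic cell markers was 5.78 log2 CPM against 3.93 to 4.41, and of T and NK cell markers 2.45 against 0.97 to 1.37. Both marker means were highest of all 24 libraries in KO_LP 4, at 6.19 and 3.16 log2 CPM. The mitochondrially encoded share of KO_LP 4 was the lowest of all 24, at 18.52%. Over both genotypes the macrophage and dendritic cell markers averaged 0.57 log2 CPM higher in LP (permutation test within genotype, two-sided, p = 0.0286, adjusted p over 19 library measures = 0.293). The mitochondrially encoded share of counts averaged 2.21 percentage points lower in LP (p = 0.0309 by the same permutation test, adjusted p = 0.293), with a difference of 0.53 points in WT, which was -0.17 without WT_NP 1, and -4.95 points in KO. Without WT_NP 1 the differences over both genotypes were 0.70 log2 CPM (adjusted p = 0.0450) and -2.56 points (adjusted p = 0.0480), by the same permutation test. That library was singled out for these same markers and had the lowest mitochondrially encoded share of WT_NP (21.84%). Leaving it out widens both differences by construction, so these 2 adjusted p-values are not independent evidence of them. The part of these differences in the results below was not tested. The S number that the descriptions add to each mouse identifier runs group by group, and the labels name no batch, so a batch and the groups cannot be told apart. In whole tissue, fewer cells of a type and less RNA per cell cannot be told apart either.

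Of 15165 genes tested, 37 were called for LP against NP at an adjusted p under 0.05 (edgeR quasi-likelihood test, Benjamini-Hochberg adjustment), which is 0.244% of the genes. The 11 genes that rose (0.0725%) included Elovl2, an elongase of long polyunsaturated fatty acids, Socs2, a feedback inhibitor of growth hormone signalling, and Grb10, an adaptor that restrains the insulin receptor. The 26 that fell (0.171%) included Aldh1l1, Amt and Bhmt of folate, glycine and betaine metabolism, the glutathione transferases Gsta2 and Gstm1, the stearoyl-CoA desaturase Scd1, and Nprl2, a subunit of the complex that restrains mTORC1 when amino acids are low. The sizes of the log2 folds ran from 0.25 to 3.24 with a median of 0.70, and 8 genes passed 1. At an unadjusted p under 0.05 there were 2171 genes (14.3%), 1069 higher (7.05%) and 1102 lower (7.27%). Taken as the average of the diet effects in 4 group means, the same comparison called 95 genes (0.626%), all 37 among them.

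**Figure D1:**
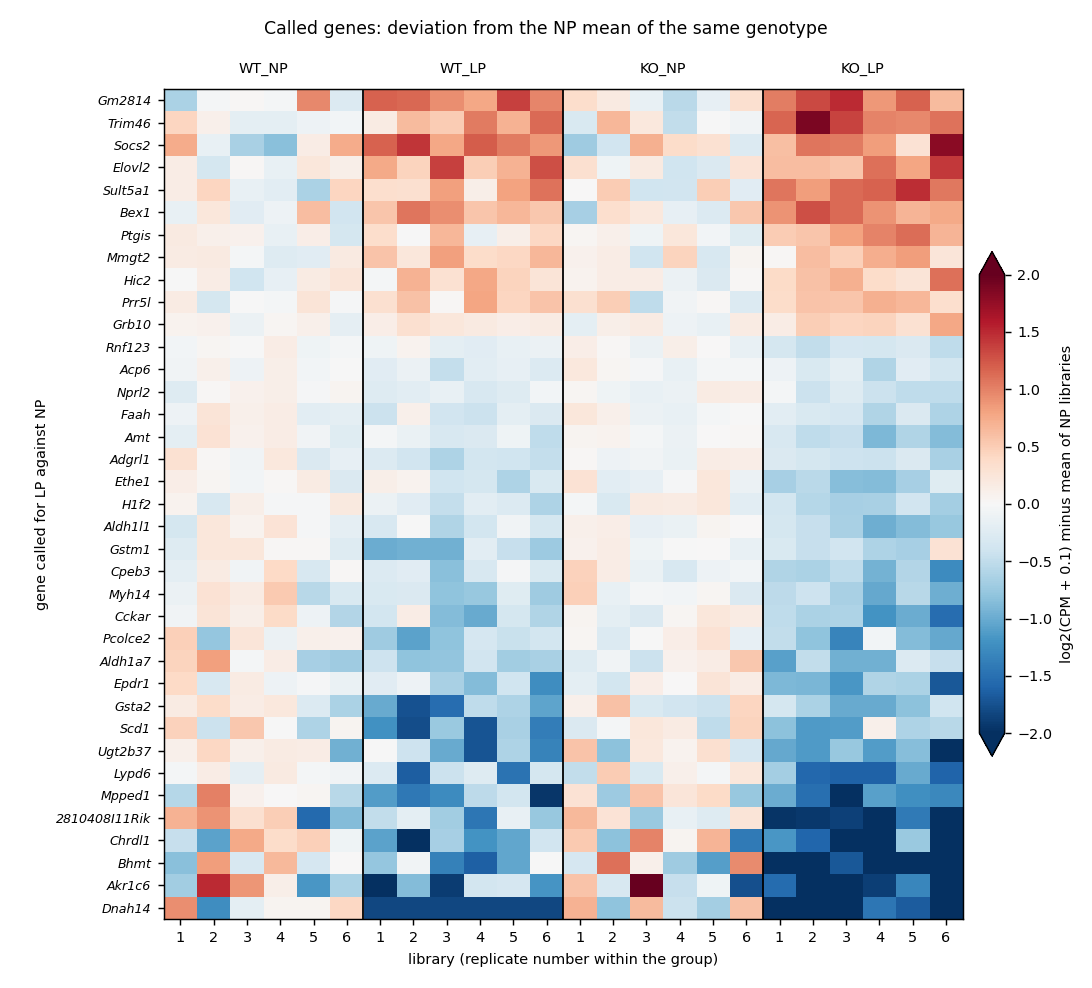
Each row is 1 of the 37 called genes, each column 1 library, and the colour is log2(CPM + 0.1) minus the mean of the NP libraries of the same genotype, with the scale ending at -2 and 2. Rows are ordered by log2 fold, and for 28 of the 37 genes all 12 LP libraries lay on the called side of their genotype's NP mean. That count follows in part from the choice of the genes by the pooled test.

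For each of the 37 genes the log2 fold had the same sign in WT and KO, beside 50.9% of all genes. In 28 genes all 12 LP libraries lay on the called side of the NP mean of their own genotype. The lowest number on that side was 10 of 12, and the share over all genes was not counted. Taken within genotype, all 37 had an unadjusted p under 0.05 in KO and 33 in WT, beside 3.82% of all genes in WT. The share of all genes in KO at that threshold is not given here. At an adjusted p under 0.05, 35 of the 37 were called in KO alone and 0 in WT alone, beside 7.17% and 0% of all genes. The size of the fold was larger in KO for 28 genes and in WT for 9, with median sizes of 0.74 and 0.61 on the log2 scale. The difference between the genotypes had an unadjusted p under 0.05 for 9 of the 37 and was called for 0, beside 16.0% of all genes at that unadjusted threshold. Those 9 are Aldh1l1, Amt, Bhmt and Ptgis, whose intervals stand with their values, and Lypd6 (difference -0.77, 95% interval -1.50 to -0.04), 2810408I11Rik (-1.27, -2.31 to -0.23), Cpeb3 (-0.43, -0.86 to -0.003), Rnf123 (-0.27, -0.47 to -0.08) and Ethe1 (-0.40, -0.77 to -0.04). These counts follow in part from the choice of the 37 by the pooled test, which draws on the same libraries.

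To show the sequence upstream of some of the called genes, the 250 bases before the RefSeq start site (GRCm38.p6) are printed for Elovl2, the gene with the smallest p, for Gsta2 and Gstm1, which fell together, and for Amt of the glycine cleavage system. Capitals mark matches, on either strand, to any of 5 motifs: TGACNNNGC (NRF2), CCAAT (the CCAAT box), CACGTG (clock E-box), TTCNNNGAA (STAT) and TGATGNAA (ATF4 and C/EBP). The region of Elovl2 is chr13:41220404-41220653 on the minus strand.
Elovl2: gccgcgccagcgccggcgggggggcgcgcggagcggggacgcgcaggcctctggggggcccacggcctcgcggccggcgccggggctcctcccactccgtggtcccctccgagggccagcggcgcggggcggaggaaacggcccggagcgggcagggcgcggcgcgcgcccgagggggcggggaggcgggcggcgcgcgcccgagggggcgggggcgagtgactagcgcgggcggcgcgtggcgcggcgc
The region of Gsta2 is chr9:78347146-78347395 on the minus strand, whose start lies 8643 bases from the outer end of the GENCODE M21 gene.
Gsta2: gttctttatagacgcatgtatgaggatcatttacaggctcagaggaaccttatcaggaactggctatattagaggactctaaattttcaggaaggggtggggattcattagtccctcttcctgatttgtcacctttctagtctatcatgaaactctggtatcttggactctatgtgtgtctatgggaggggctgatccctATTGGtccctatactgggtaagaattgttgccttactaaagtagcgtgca
The region of Gstm1 is chr3:108017974-108018223 on the minus strand.
Gstm1: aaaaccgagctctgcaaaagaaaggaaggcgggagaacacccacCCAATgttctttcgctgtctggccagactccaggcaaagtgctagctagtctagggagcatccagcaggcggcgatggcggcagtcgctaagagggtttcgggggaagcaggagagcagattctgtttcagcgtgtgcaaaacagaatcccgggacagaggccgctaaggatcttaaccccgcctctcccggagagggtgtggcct
The region of Amt is chr9:108296655-108296904 on the plus strand.
Amt: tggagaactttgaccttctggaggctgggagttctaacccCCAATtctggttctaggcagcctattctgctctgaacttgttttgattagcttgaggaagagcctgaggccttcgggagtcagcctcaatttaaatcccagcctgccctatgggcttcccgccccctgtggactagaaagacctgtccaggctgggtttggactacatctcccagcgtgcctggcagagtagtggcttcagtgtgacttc
The only matches were 1 CCAAT box each in Gsta2, Gstm1 and Amt, and Elovl2 had 0. The 30 called genes that could be matched had 41 of the 32851 RefSeq promoter windows of that length. A CCAAT box lay in 33.9% of all windows and in 16 (39.0%) of those 41. The NRF2 letters lay in 10.2% of all windows and 1 (2.44%) of the 41, and the STAT letters in 7.02% and 2 (4.88%). The E-box lay in 6.02% and 2 (4.88%), and the ATF4 letters in 3.45% and 1 (2.44%). A match describes letters only.

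Among lipid genes, Elovl2 (chr13:41182381-41220405, GRCm38) ranged over 5.48, 7.37 and 8.20 CPM in WT_NP (lowest, median, highest) and 9.63, 11.7 and 18.3 in WT_LP. In KO_NP the corresponding values were 4.75, 6.53 and 7.91 CPM, and in KO_LP 9.25, 10.3 and 17.0. Every LP library lay above every NP library whatever the genotype, and no other of the 15165 genes separated the diets in this way (0.00659%). The log2 fold was 0.88 (SE 0.13, adjusted p = 0.00226), with 0.89 in WT and 0.87 in KO, and the genotypes differed by -0.02 (95% interval -0.55 to 0.51). The lowest and highest folds on leaving out single libraries were 0.82 and 0.92.

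Scd1 (chr19:44394455-44407879), which introduces the first double bond into stearate, read 31.0, 48.0 and 69.0 CPM in WT_NP and 13.8, 19.2 and 30.3 in WT_LP. In KO it read 14.1, 21.1 and 27.5 CPM on NP and 9.13, 12.2 and 21.6 on LP. The WT groups did not overlap and the KO groups did. Over all genes, the 6 LP and 6 NP libraries did not overlap for 44 (0.29%) in WT and 562 (3.71%) in KO. This was a log2 fold of -0.96 (SE 0.18, adjusted p = 0.0189), -1.24 in WT and -0.65 in KO, with a difference of 0.59 (95% interval -0.12 to 1.30). Of the other 22 tested genes of fatty acid synthesis, elongation and desaturation, 0 were called. Fatty acid synthase, Fasn, had a log2 fold of -0.20 (adjusted p = 0.247), and the desaturases Fads1 and Fads2 had 0.02 and 0.08. The median fold of the list was -0.05, beside 0.02 over all genes.

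**Figure D2:**
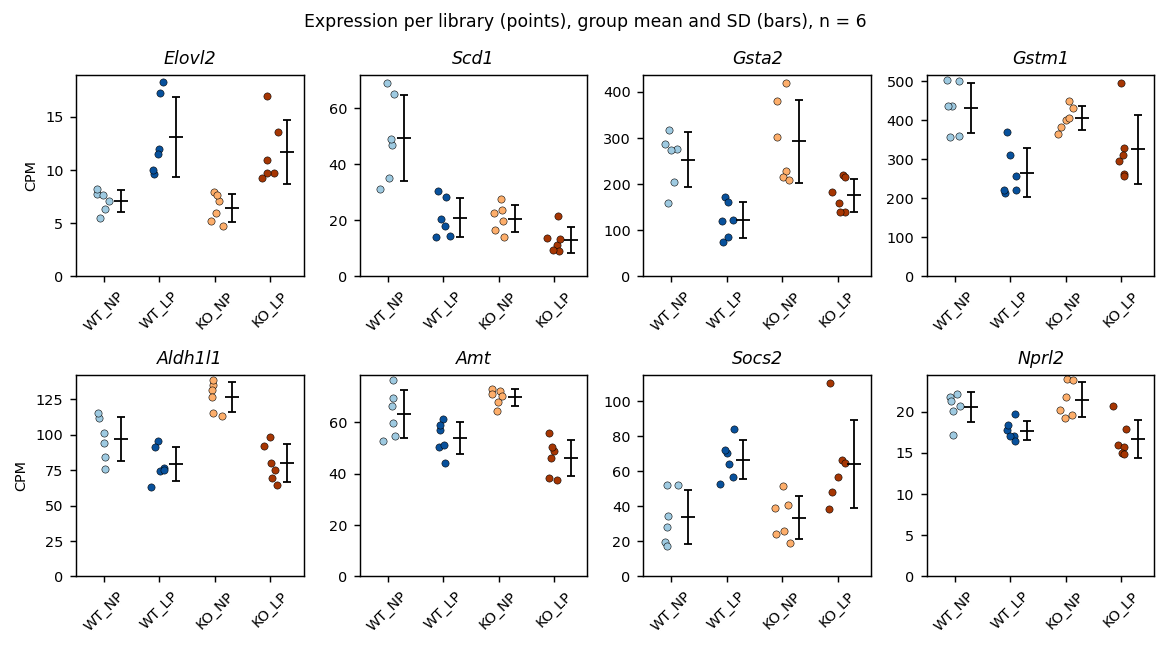
CPM of 8 called genes in each library (points) with the mean and SD of each group of 6 (bars), all axes from 0. Elovl2 and Socs2 sit higher in both LP groups and the other 6 genes lower, and Elovl2 alone shows no overlap between the 12 LP and 12 NP libraries.

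Those of the called genes that feed or use one-carbon units, Aldh1l1, Amt and Bhmt, all fell. Aldh1l1 (chr6:90486427-90600203), which oxidises formyl-tetrahydrofolate, read 75.4, 97.5 and 116 CPM in WT_NP and 63.1, 75.9 and 95.7 in WT_LP. In KO_NP it read 113, 129 and 138 CPM and in KO_LP 64.2, 77.6 and 98.6, so the KO groups did not overlap and the WT groups did. The log2 fold was -0.48 (SE 0.09, adjusted p = 0.0160), with -0.29 in WT and -0.67 in KO and a difference of -0.38 (95% interval -0.71 to -0.04, adjusted p = 0.270).

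Amt (chr9:108296853-108302302), the aminomethyltransferase of glycine cleavage, read 52.8, 62.9 and 76.5 CPM in WT_NP and 44.3, 54.1 and 61.2 in WT_LP. KO libraries ran over 64.3, 70.6 and 72.8 CPM on NP and 37.4, 47.5 and 55.7 on LP, without overlap. Its log2 fold was -0.41 (SE 0.08, adjusted p = 0.0189), -0.23 in WT and -0.60 in KO, with a difference of -0.36 (95% interval -0.66 to -0.07, adjusted p = 0.237).

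Bhmt (chr13:93616675-93637961), which remethylates homocysteine with betaine, was low in this tissue and is named because it was called, not by the rule for named genes. It read 0.99, 1.65 and 3.36 CPM in WT_NP, 0.52, 0.94 and 1.84 in WT_LP, 1.54, 3.19 and 7.47 in KO_NP and 0.11, 0.58 and 0.99 in KO_LP. All 12 LP libraries lay below their genotype's NP mean. Its fold was -1.77 (log2, SE 0.37, adjusted p = 0.0377), and the call held in 10 of the 24 fits that left out 1 library, with the highest adjusted p (0.0828) without KO_LP 2. Within genotype the log2 fold was -0.86 in WT (quasi-likelihood test, unadjusted p = 0.0533) and -2.84 in KO. The genotypes differed by -1.98 (95% interval -3.29 to -0.68, unadjusted p = 0.00443, adjusted p = 0.195).

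Of the 27 tested genes for glycine, serine and one-carbon metabolism, those 3 were called lower and 0 higher, beside 0.171% called lower over all genes. The list's median fold was -0.19, with -0.07 in WT and -0.29 in KO. Markers of the proximal tubule had a median of -0.17 for its first segments (0.09 in WT, -0.31 in KO, 13 of 15 below 0) and -0.22 for its last (-0.06 in WT, -0.39 in KO, 10 of 12 below 0). Their mean levels per library averaged -0.21 and -0.23 log2 CPM in LP minus NP (permutation tests, adjusted p = 0.329 each), and their part in the values of amino acid enzymes was not tested. The next one-carbon members by p were Bhmt2, a homocysteine methyltransferase (log2 fold -0.52, adjusted p = 0.0548), and the dimethylglycine dehydrogenase Dmgdh (-0.43, adjusted p = 0.125). The P-protein of glycine cleavage, Gldc, had a log2 fold of -0.28 with an adjusted p of 0.433. Among 26 tested genes of branched chain amino acid breakdown, 25 had pooled folds below 0, the median was -0.19 and 0 were called. The median was -0.007 in WT and -0.40 in KO, and 15 of the 26 had the same sign in both. The difference between genotypes had an unadjusted p under 0.05 for 15 of the 26, beside 16.0% of all genes. The first member of that list by p, the cytosolic transaminase Bcat1, had a log2 fold of -1.33 (adjusted p = 0.103). All 12 LP libraries lay below the NP mean of their genotype.

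The glutathione transferases Gsta2 and Gstm1, which join glutathione to reactive compounds, were the only called members among 42 tested genes of that family and of NRF2 targets. Gsta2 (chr9:78331018-78355788) read 159, 276 and 318 CPM in WT_NP and 73.9, 120 and 173 in WT_LP. In KO it read 208, 266 and 421 CPM on NP and 139, 171 and 220 on LP, so each genotype's groups overlapped slightly at their edges. The log2 fold was -0.89 (SE 0.15, adjusted p = 0.00968), -1.05 in WT and -0.74 in KO, with a difference of 0.31 (95% interval -0.32 to 0.95).

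Gstm1 (chr3:108012255-108017973) read 356, 436 and 502 CPM in WT_NP, 215, 240 and 369 in WT_LP, 365, 404 and 450 in KO_NP and 256, 304 and 496 in KO_LP. The library KO_LP 6 held the highest KO value, above all KO_NP libraries, while the other 5 KO_LP libraries lay below them. Its log2 fold was -0.51 (SE 0.11, adjusted p = 0.0453), -0.70 in WT and -0.32 in KO, with a difference of 0.38 (95% interval -0.05 to 0.81). The call held in 7 of 24 leave-one-out fits, with the highest adjusted p (0.0872) without WT_LP 6. Both genes belong to families of near-identical copies whose reads the authors' counting may have split, so their values are uncertain in that respect. The list's median was -0.09, with -0.14 in WT and -0.02 in KO, and 29 of the 42 folds lay below 0. The NRF2 target Nqo1 had -0.17 (adjusted p = 0.790).

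Other enzymes of conjugation and oxidation among the calls were Ugt2b37, Aldh1a7, Akr1c6 and Sult5a1, again members of families with close copies. Ugt2b37 (chr5:87240493-87254804), a glucuronosyltransferase on the list of male-biased kidney genes, read 147, 312 and 381 CPM in WT_NP and 86.0, 163 and 282 in WT_LP. In KO it read 361, 704 and 947 CPM on NP and 159, 305 and 376 on LP. The fold of Ugt2b37 was -0.98 (log2, SE 0.19, adjusted p = 0.0276), and WT_NP 6 and KO_LP 6 lay far below the rest of their groups. It was the only called gene of the 21 tested on that list, whose median was -0.28 with 19 folds below 0, and its call held in 18 of 24 leave-one-out fits (highest adjusted p 0.0635, without KO_LP 2).

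Aldh1a7 (chr19:20692953-20727562), an aldehyde dehydrogenase, read 18.2, 31.3 and 53.2 CPM in WT_NP, 17.1, 18.8 and 23.0 in WT_LP, 54.0, 73.3 and 106 in KO_NP and 34.4, 44.6 and 60.2 in KO_LP. The log2 fold was -0.72 (adjusted p = 0.0377), nearly the same in WT (-0.73) and KO (-0.70), with a 95% interval of the difference of -0.60 to 0.65. Its call held in 9 of 24 leave-one-out fits (highest adjusted p 0.0819, without KO_LP 3). Akr1c6 and Sult5a1 lay outside the rule for named genes and averaged 0.569 and 1.90 CPM. Their log2 folds were -2.35 (adjusted p = 0.0453) and 0.86 (adjusted p = 0.0219), and 2 LP libraries had 0 counts of Akr1c6. They held in 7 and 22 of 24 leave-one-out fits, with adjusted p up to 0.0951 without KO_LP 4 for Akr1c6 and up to 0.0523 without WT_NP 4 for Sult5a1.

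In the insulin and IGF axis, 2 of 24 tested genes were called, both higher, beside 0.0725% called higher over all genes. Socs2 (chr10:95385362-95417180) read 17.3, 31.3 and 52.2 CPM in WT_NP and 52.9, 67.3 and 83.9 in WT_LP, without overlap. In KO it read 19.2, 32.5 and 51.8 CPM on NP and 38.7, 60.8 and 110 on LP, where the groups overlapped. For Socs2 the log2 fold was 0.96 (SE 0.20, adjusted p = 0.0351), 0.97 in WT and 0.94 in KO, with a difference of -0.04 (95% interval -0.86 to 0.79). The call held in 12 of 24 leave-one-out fits, with the highest adjusted p (0.0698) without WT_NP 4.

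Grb10 (chr11:11930508-12038683) read 16.7, 19.8 and 20.3 CPM in WT_NP, 20.8, 21.5 and 23.8 in WT_LP, 15.9, 18.4 and 20.5 in KO_NP and 20.1, 24.6 and 31.2 in KO_LP. The WT groups did not overlap and the KO groups overlapped at their edges. For Grb10 the log2 fold was 0.31 (SE 0.07, adjusted p = 0.0431), 0.19 in WT and 0.44 in KO, with a difference of 0.25 (95% interval -0.01 to 0.51). The call held in 9 of 24 leave-one-out fits, with the highest adjusted p (0.0906) without KO_NP 5. Igf1, its receptor Igf1r and the growth hormone receptor Ghr had log2 folds of 0.05, -0.06 and -0.05 and were not called.

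In amino acid sensing, Nprl2 (chr9:107542226-107545706) was the only called member of 36 tested genes. It read 17.2, 21.0 and 22.1 CPM in WT_NP, 16.4, 17.4 and 19.7 in WT_LP, 19.3, 21.0 and 24 in KO_NP and 14.9, 15.8 and 20.7 in KO_LP, with overlap in both genotypes. The log2 fold was -0.29 (SE 0.06, adjusted p = 0.0431), -0.21 in WT and -0.37 in KO, with a 95% interval of the difference of -0.41 to 0.10. The call held in 6 of 24 leave-one-out fits, with the highest adjusted p (0.0906) without KO_NP 5. Its partners Nprl3 and Depdc5 had log2 folds of -0.00 and 0.03 and the kinase Mtor -0.32 (adjusted p = 0.121). Prr5l, a binding partner of mTORC2 that stands on no list, had a log2 fold of 0.48 (adjusted p = 0.0453), and its call held in 9 of those fits with an adjusted p up to 0.0913 without KO_LP 4. Of 41 tested ATF4 targets, the genes induced when amino acids run short, 0 were called and the median fold was 0.17, with -0.02 in WT and 0.39 in KO. The asparagine synthetase Asns had 0.49 (adjusted p = 0.405) and Trib3 1.12 (adjusted p = 0.247).

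Among receptors and structural genes, Adgrl1 (chr8:83900105-83941954), an adhesion G protein-coupled receptor, read 35.5, 42.9 and 53.5 CPM in WT_NP, 28.4, 33.3 and 35.9 in WT_LP, 50.3, 54.0 and 60.6 in KO_NP and 35.0, 42.1 and 44.9 in KO_LP. The KO groups did not overlap and the WT groups overlapped by the edge. Its log2 fold was -0.42 (SE 0.06, adjusted p = 0.00226), -0.43 in WT and -0.41 in KO, with a difference of 0.03 (95% interval -0.23 to 0.29). Cckar, a cholecystokinin receptor, read 161, 244 and 312 CPM in WT_NP, 119, 172 and 266 in WT_LP, 302, 382 and 432 in KO_NP and 128, 212 and 259 in KO_LP. For Cckar the log2 fold was -0.69 (SE 0.14, adjusted p = 0.0298), -0.49 in WT and -0.88 in KO, with a difference of -0.39 (95% interval -0.94 to 0.15). Its call held in 14 of 24 leave-one-out fits (highest adjusted p 0.0717, without WT_NP 4).

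Myh14, a non-muscle myosin heavy chain, read 9.10, 13.7 and 19.4 CPM in WT_NP, 7.67, 9.48 and 11.4 in WT_LP, 15.3, 18.1 and 26.0 in KO_NP and 9.14, 12.2 and 14.0 in KO_LP. Its log2 fold was -0.62 (adjusted p = 0.0160). Epdr1, a lysosomal protein of the ependymin family, read 12.7, 15.4 and 21.1 CPM in WT_NP, 6.71, 11.1 and 14.9 in WT_LP, 14.4, 19.6 and 22.2 in KO_NP and 5.64, 9.87 and 12.1 in KO_LP, a log2 fold of -0.75 (adjusted p = 0.00968). In both genes the KO groups did not overlap and the WT groups did. The linker histone gene H1f2 had a log2 fold of -0.44 (adjusted p = 0.00859), with close copies in its cluster.

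Further rises were Hic2, a transcriptional repressor (log2 fold 0.50, adjusted p = 0.0354), Mmgt2, a membrane magnesium transporter (0.51, adjusted p = 0.0358), and Ptgis, prostacyclin synthase (0.52, adjusted p = 0.0453). Their calls held in 14, 12 and 7 of the 24 leave-one-out fits, with adjusted p up to 0.0781 without KO_LP 3, 0.0776 without KO_LP 4 and 0.0950 without KO_NP 5. Ptgis had a log2 fold of 0.245 in WT and 0.80 in KO, a difference of 0.55 (95% interval 0.14 to 0.96, adjusted p = 0.225). Only 4 of 6 WT_LP libraries lay above the WT_NP mean of Ptgis. Bex1, a small X-linked adaptor, rose by 0.81 on the log2 scale (adjusted p = 0.00820) from 1.14 to 4.31 CPM across NP libraries to 3.06 to 5.94 across LP libraries. Cpeb3, an RNA-binding regulator of translation, had a log2 fold of -0.55 (adjusted p = 0.0326), and its call held in 13 of those fits (highest adjusted p 0.0741, without WT_NP 4).

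Low counts carried some of the largest folds. Dnah14, an axonemal dynein, had 28 counts over the 6 WT_NP libraries and 0 over the 6 WT_LP libraries, so it was at least 9.49-fold lower, taking 3 counts over the group as the floor. In KO it had 116 counts on NP and 16 on LP, and the pooled adjusted p was 0.00226. Gm2814 rose by 1.10 (adjusted p = 0.00387) with medians of 0.99 and 2.24 CPM in WT_NP and WT_LP and 0.63 and 1.44 in KO_NP and KO_LP. Mpped1, a metallophosphoesterase gene, fell by 1.31 on the log2 scale (adjusted p = 0.00571). In all, 12 of the 37 averaged under 5 CPM.

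The remaining calls lay outside the rule for named genes and were picked out because they were called. Trim46 (log2 fold 0.99, adjusted p = 0.00603) rose. Lypd6 (-1.04, adjusted p = 0.0142), 2810408I11Rik (-1.48, adjusted p = 0.0181), Chrdl1 (-1.57, adjusted p = 0.0306), Acp6 (-0.27, adjusted p = 0.0306), Rnf123 (-0.25, adjusted p = 0.0377), Faah (-0.33, adjusted p = 0.0453), Pcolce2 (-0.70, adjusted p = 0.0453) and Ethe1 (-0.44, adjusted p = 0.0497) fell. Of these, Trim46, Lypd6 and 2810408I11Rik kept their call in all 24 leave-one-out fits, Acp6 in 17 and Chrdl1 in 16. Rnf123 kept it in 8 (highest adjusted p 0.0828, without KO_LP 2), Pcolce2 in 7 (0.0914, without KO_NP 5), Faah in 6 (0.0946, without KO_NP 1) and Ethe1, a mitochondrial sulfur dioxygenase, in 5 (0.0981, without KO_LP 4). The highest adjusted p of Acp6 was 0.0717 and of Chrdl1 0.0698, both without WT_NP 4. Elovl2, Dnah14 and Lypd6 were the 3 genes (0.0198% of those tested) whose LP and NP libraries did not overlap within either genotype, with the same direction in both.

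Counting by strand is not stated, so reads of a gene and of an overlapping neighbour on the other strand cannot be told apart. Such a neighbour lies beside 10 of the 37 genes, and for 8 of these it was itself tested. Trim46 overlaps Krtcap2, which had a log2 fold of -0.01, and Cpeb3 overlaps March5, which had -0.07. Rnf123 overlaps Gmppb (-0.08), Dnah14 overlaps Lbr (-0.13), and Gm2814 overlaps 4833411C07Rik (0.53, adjusted p = 0.278). Myh14 overlaps 2310016G11Rik (-0.73, adjusted p = 0.152), Adgrl1 overlaps Gm10644 (-0.25) and 2810408I11Rik overlaps Ccnyl1 (-0.25), none of them called. Nprl2, Rnf123 and Amt lie close together on chromosome 9, with gaps of 505.8 and 213.5 kb and 21 and 3 other tested genes between them.

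Whether the diet effect was alike in the genotypes was then read from all genes. No gene was called for the difference of the diet effects (2430 at an unadjusted p under 0.05, 16.0%, and 117 called by DESeq2). No gene was called in both genotypes when the larger of its 2 p-values was adjusted (98 at an unadjusted p under 0.05, 0.646%, and 1 called by DESeq2). LP against NP gave 0 calls in WT (580 at an unadjusted p under 0.05, 3.82%, with 16 called by DESeq2 and 6 by voom) and 1087 in KO (7.17%). Of those 1087, 616 (56.7%) had the same sign in WT, beside 50.9% of all genes.

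Across the 15165 genes the log2 folds in WT and KO, which share no library, had a Pearson r of -0.04. Genes are not independent replicates, and libraries of a group share its mean, so r is a description. Without WT_NP 1, r was 0.31 and 60.9% of genes had the same sign. Without any other single library r lay between -0.23 (without WT_LP 3) and 0.07 (without WT_LP 2). The scatter of the WT and KO folds over the 10450 genes with at least 5 CPM shows the same contrast, with r of -0.02 and 0.34. With voom and quality weights on all 24 libraries r over all genes was 0.18, and 58.5% had the same sign. Without WT_NP 1, KO_LP 4 and KO_LP 6 together r over all genes was 0.31.

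**Figure D3:**
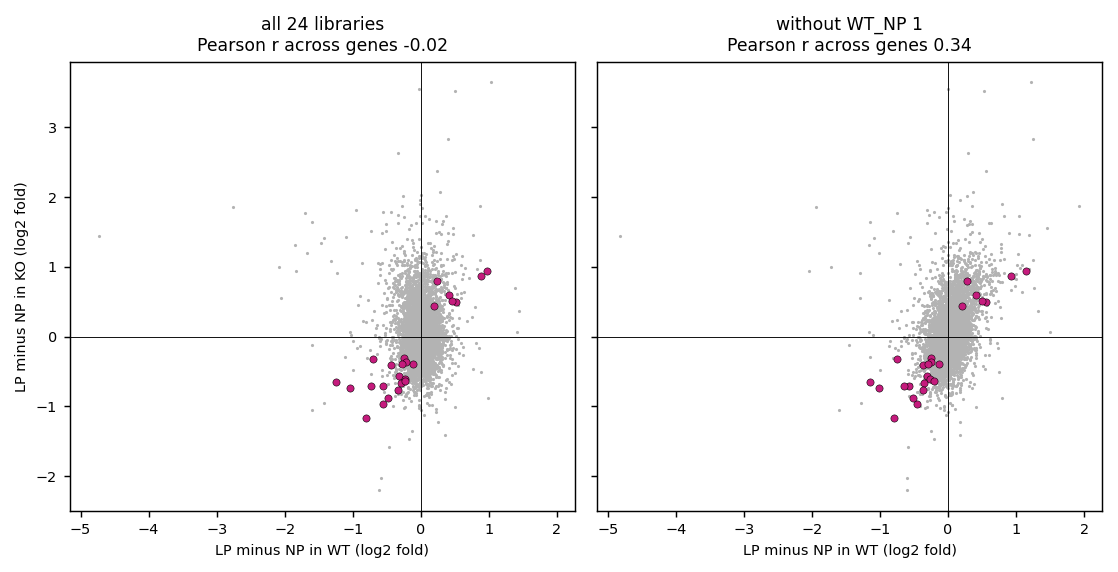
Log2 folds of LP against NP in WT (horizontal) and KO (vertical) for the 10450 genes averaging 5 CPM or more, with all 24 libraries on the left and without WT_NP 1 on the right. Filled circles are the called genes with at least 5 CPM, which lie in the same 2 quadrants in both panels, while r across genes is -0.02 on the left and 0.34 on the right.

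The 5 genes with the smallest p for the difference between genotypes each had an adjusted p of 0.158. Calb1, the calcium-binding protein calbindin of the distal tubule, read 58.2, 108 and 151 CPM in WT_NP, 145, 208 and 235 in WT_LP, 130, 150 and 246 in KO_NP and 83.3, 131 and 144 in KO_LP. Its log2 fold was 0.88 in WT and -0.50 in KO, and the pooled fold was 0.19 (adjusted p = 0.680). Pyurf had 0.11 in WT and -0.38 in KO, and S1pr4, a receptor of lymphocytes, had -0.36 and 1.19. Gm26532 had -0.42 and 0.51, and Gm43190 had 1.07 and -1.30. The FGF receptor Fgfr1 and the co-receptor Kl, a gene other than Klb, were not called for the pooled effect. Fgfr1 had a pooled log2 fold of 0.09 (adjusted p = 0.459) and Kl -0.11 (adjusted p = 0.822). The small pooled fold of Kl averaged folds of opposite sign, 0.42 in WT and -0.65 in KO. For Kl the genotypes differed by -1.07 (95% interval -1.83 to -0.31), which was not called (quasi-likelihood test, adjusted p = 0.217). Fgfr1 had 0.001 in WT and 0.19 in KO, with a difference of 0.19 (-0.05 to 0.42).

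Of 58 lists of pathway genes and cell type markers, the called genes fell on 7, and 25 of the 37 stood on no list. Markers of macrophages and dendritic cells had 22 of 22 folds above 0 and a median of 0.57 (0.30 in WT, 0.89 in KO), with 0 called. Tubular injury genes had 27 of 28 above 0 and a median of 0.44, which was -0.01 in WT and 0.91 in KO. B and plasma cell markers had medians of -0.78 in WT and 1.51 in KO and a pooled 0.37. MHC class II genes had 0.07 and 0.99. Genes of oxidative phosphorylation had a pooled median of -0.15, with 78 of 81 below 0 (0.00 in WT, -0.33 in KO), and sterol synthesis genes -0.23 with 24 of 25 below 0 (-0.03 in WT, -0.33 in KO). None of these lists had a called gene.

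**Figure D4:**
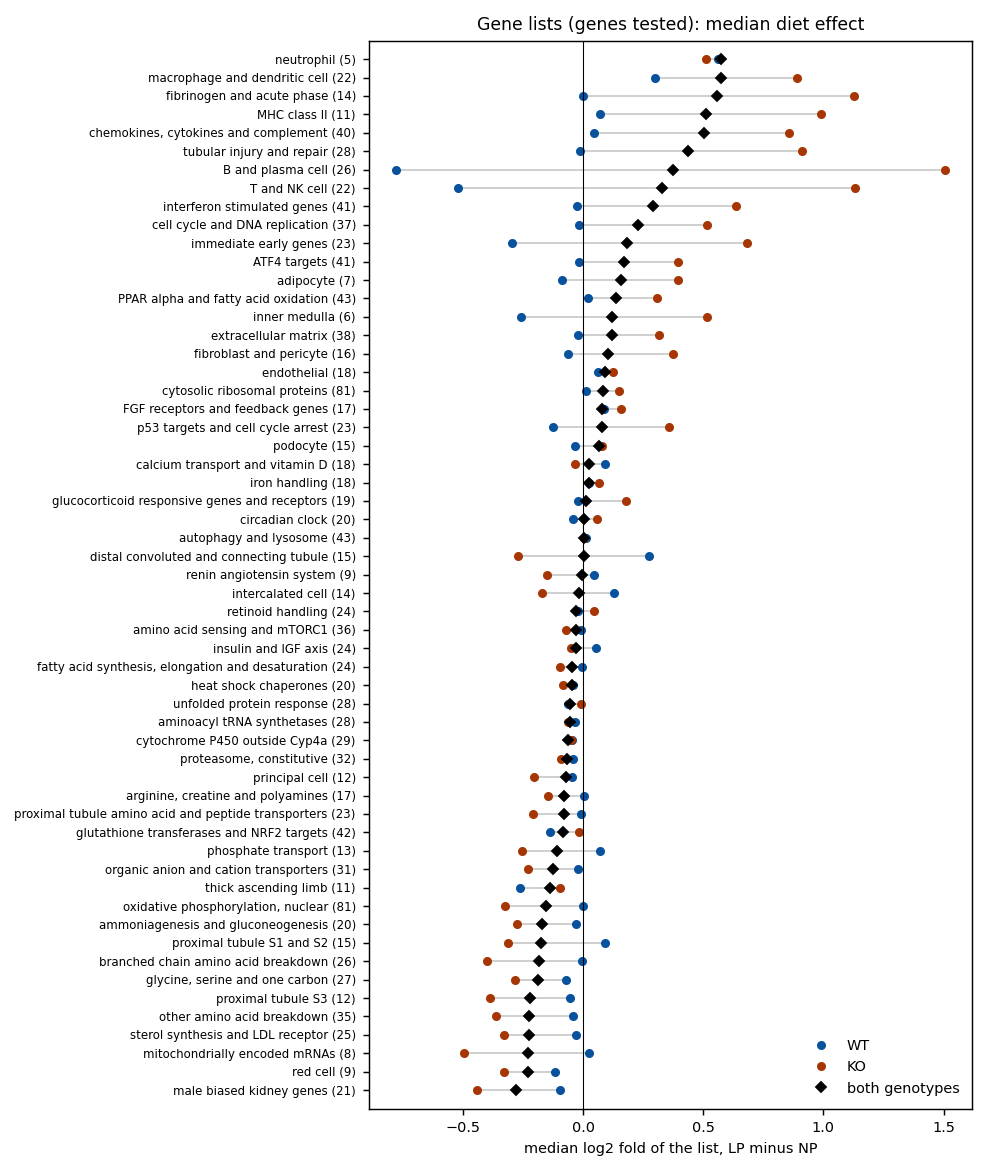
Median log2 fold of LP against NP over the tested genes of each list with at least 5 of them, in WT and KO (circles, joined by a grey line) and in the pooled fit (diamonds), with the number of genes in brackets. For B and plasma cells the circles lie at -0.78 and 1.51, and for neutrophil markers at 0.56 and 0.51.

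The lists were read again without WT_NP 1, where 406 genes were called (2.67%), 257 higher and 149 lower. That library was singled out for its high immune cell markers. Leaving it out raises LP minus NP in WT for any gene high in it and lowers that difference for any gene low in it. Neither the rises nor the falls below are therefore independent evidence. Of 22 macrophage and dendritic cell markers, 10 were then called higher, with a median of 0.79 (0.72 in WT, 0.89 in KO). Of 11 MHC class II genes, 6 were called higher, among them Cd74 and H2-Aa, and of 28 tubular injury genes 9, among them Havcr1 and Lcn2, with a WT median of 0.24. The WT median was 0.46 for MHC class II genes and -0.34 for B and plasma cell markers, whose pooled median was 0.60. Of 27 one-carbon genes, 9 were called lower: Amt, Shmt2, Aldh1l1, Dmgdh, Sardh, Gnmt, Bhmt, Bhmt2 and Cbs. The median of the 27 was -0.10 in WT and -0.29 in KO. Of 26 branched chain genes, 6 were called lower, among them Bcat1, Bckdhb, Dbt and Ivd, and the median of the 26 was -0.07 in WT and -0.40 in KO. Without WT_NP 1, KO_LP 4 and KO_LP 6 together, 125 genes were called (0.816%), 71 higher and 54 lower. They included 34 of the 37, with 3 macrophage markers, 4 MHC class II genes and 4 one-carbon genes.

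Single libraries moved the count of called genes. All 37 held without WT_NP 1, which gave 406, and without WT_NP 6 or WT_LP 2, which gave 100 each. Fewer were called without WT_NP 4 (16), KO_LP 2 (17), KO_NP 1 (18), KO_NP 5 (18), KO_LP 3 (20), WT_NP 3 (21), KO_NP 6 (21), KO_LP 4 (21), WT_NP 2 (23), WT_LP 3 (23) and KO_LP 5 (24). The remaining fits gave 25 to 48. In all 24 fits, 16 genes kept their call: Elovl2, Dnah14, Adgrl1, Gm2814, Mpped1, Trim46, Bex1, H1f2, Gsta2, Epdr1, Lypd6, Myh14, Aldh1l1, 2810408I11Rik, Scd1 and Amt. The 1087 calls in KO fell to 122 without KO_NP 5, 136 without KO_LP 4, 399 without KO_NP 4, 454 without KO_NP 1, 460 without KO_NP 6, 466 without KO_LP 6, 593 without KO_LP 5 and 623 without KO_NP 3. They numbered 1759 without WT_NP 1 and 2006 without KO_LP 1.

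Some calls rested on the covariates of the fit. With the mean immune marker level as a covariate, 8 of the 37 lost their call: Nprl2, Grb10, Prr5l, Gstm1, Akr1c6, Faah, Rnf123 and Ethe1. With 1 surrogate variable these 8 and Socs2, Hic2, Mmgt2, Ptgis, Ugt2b37, Aldh1a7, Bhmt, Cpeb3, Acp6 and Chrdl1 lost it, 18 in all. Without the genotype covariate 13 kept it: Elovl2, Bex1, H1f2, Gsta2, Epdr1, Lypd6, Aldh1l1, 2810408I11Rik, Amt, Gm2814, Sult5a1, Socs2 and Bhmt.

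**Figure D5:**
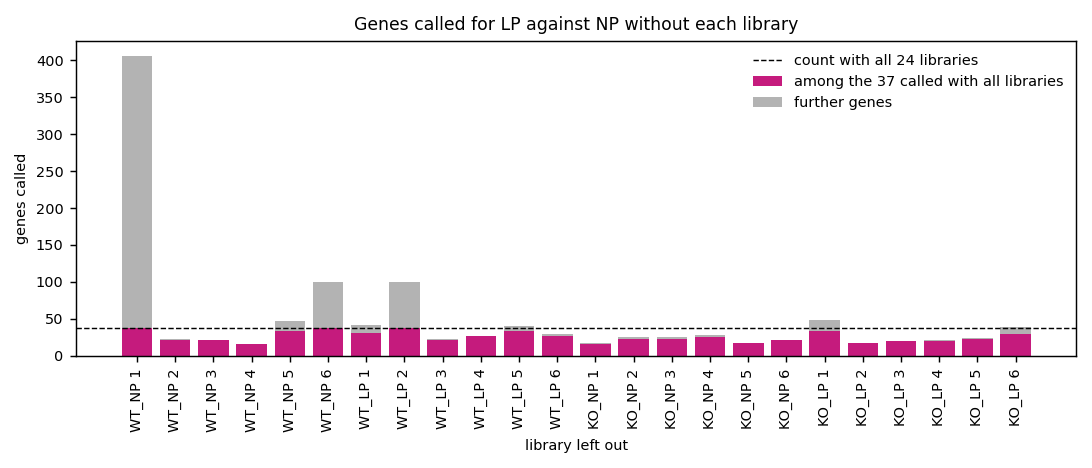
Number of genes called for LP against NP when the library named on the horizontal axis was left out, split into those among the 37 called with all 24 libraries and further genes, with the count of 37 as a dashed line. The bar without WT_NP 1 reaches 406 and the lowest, without WT_NP 4, is 16.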

How the data were processed

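Per the labels' protocols, RNA of kidney cortex was sequenced as QuantSeq forward reads. The authors deposited raw counts per gene and a normalized signal equal to the counts divided by 1 size factor per library. The submitters' processing notes name DESeq2 1.22.2 and build GRCm38. The aligner, counter and strand setting were not given in the sources used here.

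Of 16921 genes, 15165 passed filterByExpr and 1756 did not. Symbols of 2668 identifiers came from GENCODE M21, and 45 had none. Counts were fitted with edgeR 4.0.16 (TMM factors, robust quasi-likelihood, R 4.3.3) on all 24 libraries with genotype and diet as terms. A fit of 4 group means gave the diet effect in each genotype and their difference. An adjusted p under 0.05 (two-sided, Benjamini-Hochberg, every tested gene) was a call. The p-values measure spread between mice. Library measures were tested by permuting diet within genotype 100000 times. Alternatives used DESeq2 1.42.0, limma 3.58.1 and sva 3.50.0. The pooled fit was tested on simulated data.

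Named genes were called genes of at least 5 CPM with a proper symbol: the 10 largest rises and falls, the 5 smallest p-values each way, and up to 2 per gene list. The 6 genes with the smallest p in both genotypes, the 5 with the smallest p for the difference, Fgfr1 and Kl were added. The members and gene lists were chosen with earlier results of these data known.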

Additional observations from a re-analysis of the deposited data

Results flagged for a closer look

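In each group of 6 libraries, the highest and lowest values were set against the other 5, for the named genes and the library measures. A library was singled out where its gap to its nearest neighbour, as a share of the group's range, passed Dixon's critical value at 95%. Of 224 groups, 12 held such a library, and chance gives about 1 in 20.

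Ugt2b37 was low in WT_NP 6, at 7.198 log2 CPM against 8.261 to 8.574, and in KO_LP 6, at 7.312 against 8.193 to 8.556. Cpeb3 was low in WT_LP 3, at 5.038 log2 CPM against 5.558 to 5.854. The library total of KO_LP 1 was the lowest of its group, at 8.469 against 12.32 to 14.14 (library measure in units of 1e6 counts).

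WT_NP 1 had a high mean log2 CPM of macrophage and dendritic cell markers (5.782), of T and NK cell markers (2.453) and of fibroblast and pericyte markers (5.295), and a low one of intercalated cell markers (3.327). KO_LP 6 had high neutrophil markers (3.11, against 1.156 to 1.707) and adrenal cortex markers (2.439, against 0.846 to 1.118). WT_LP 3 had low distal convoluted and connecting tubule markers (5.639, against 6.031 to 6.265). KO_NP 2 had high red cell markers (6.805, against 5.411 to 5.862).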

How the results depend on the processing

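The pooled count of 37 became 22 (7 higher, 15 lower) with a filter of 5 CPM in 6 libraries, where 12 of the 37 were not tested, 13 without the genotype covariate, 95 as the average contrast of the 4 group means, 125 without WT_NP 1, KO_LP 4 and KO_LP 6, 204 (86 higher, 118 lower) with DESeq2 and 700 (336 higher, 364 lower) with voom and quality weights. It was 37 with DESeq2 size factors and without mitochondrially encoded genes, 36 without a filter, 38 with limma on the normalized values, 30 with 1 surrogate variable (19 of the 37) and 44 with mean immune marker level as covariate (29 of the 37). The KO count of 1087 became 4 with 1 surrogate variable, 34 with the immune covariate, 36 without the 3 libraries, 1693 with voom and 1846 with DESeq2. WT gave 6 with voom and 16 with DESeq2, the difference between genotypes 117 with DESeq2, and both genotypes 1 with DESeq2. The causes were not tested. Leaving out each library gave 16 to 406 pooled calls, 122 to 2006 in KO, 0 to 2 in WT, and 0 for the difference and for both genotypes.

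The 37 genes had no change of direction under the 12 settings run, and 10 of them (Epdr1, Elovl2, Aldh1l1, Amt, H1f2, Bex1, Lypd6, Gsta2, 2810408I11Rik and Gm2814) were called in all 35 fits other than that with the 5 CPM filter. Kl turned to 0.088 with 1 surrogate variable and 0.018 with the immune covariate. Without the 3 libraries the intercalated cell markers turned to 0.00964 and the adipocyte markers to -0.0780. Leaving out single libraries gave ranges of -2.56 to -1.75 points for the mitochondrially encoded share, 0.466 to 0.703 for macrophage and dendritic cell, -0.0784 to 0.0427 for adipocyte, -0.0111 to 0.0606 for podocyte, -0.160 to 0.0462 for red cell, -0.0558 to 0.0211 for intercalated cell and -0.0165 to 0.276 for B and plasma cell markers. No paired analysis was possible because the labels give mouse identifiers and no replicate numbers shared between groups. Depth limits the genes under 5 CPM most, where a few counts set the fold.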
